A study of Mus musculus with 7 samples.

Results

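Cultured BB-p53n oligodendrocyte progenitor cells (OPCs) held 901 nuclei with 30000 or more unique molecular identifiers (UMIs, each standing for 1 captured RNA molecule), out of 10047 deposited nuclei. These high-UMI nuclei were chosen by their total UMIs alone, with no upper limit on detected genes, and they made up 8.97% of the nuclei (95% exact binomial interval 8.42 to 9.54%). They were compared with the 4672 nuclei of 10000 to 20000 UMIs from the same library, called the comparison nuclei here. BB-p53n OPCs are primary mouse OPCs of either sex, taken from *Trp53* fl/fl C57BL/6 pups by binding to an antibody against CD140a (PDGFRα). A PDGFB-IRES-CRE retrovirus then made them *Trp53* null and PDGFB overexpressing. Whether each nucleus carries both changes was not measured, and no unmodified OPC was analysed beside them. The cells were profiled from culture as 1 snRNA-seq library, and the brain tumor samples of the study, 3 of an early and 3 of a late stage, were not analysed here.

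OPCs are the proliferating glial progenitors that give rise to oligodendrocytes, and PDGF signaling through PDGFRα drives their division. A cell that copies its DNA and enters G2 and mitosis also accumulates RNA, and a cell that skips division becomes polyploid with a larger nucleus. In droplet-based sequencing a barcode can also gain RNA because a pair of nuclei shared 1 droplet, which is called a doublet, and a doublet of unlike nuclei carries the transcripts of both. The data bear on some of these cases through cell cycle genes and through genes that separate nuclei do not share. RNA shares by chromosome are also given, but a gain of RNA that is even over all chromosomes leaves them unchanged. With 1 library there is no replicate: no test was run between the groups, and the 95% intervals given here (exact Poisson for UMI sums, exact binomial for shares) cover counting error only.

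The high-UMI nuclei ranged from 30005 to 83454 UMIs, with a median of 37875 against 13894 in the comparison nuclei, a ratio of 2.73. They held 36517829 of the 154375410 UMIs of the library, or 23.7%. The distribution had no gap at the threshold. The 5 nuclei just inside it had 30005, 30007, 30019, 30021 and 30022 UMIs, and the 5 just outside had 29904, 29917, 29968, 29968 and 29995. Between 6326 and 9483 genes were detected in a high-UMI nucleus (median 7485), and all 212 nuclei of the library with more than 8000 detected genes were among them.

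**Figure D1:**
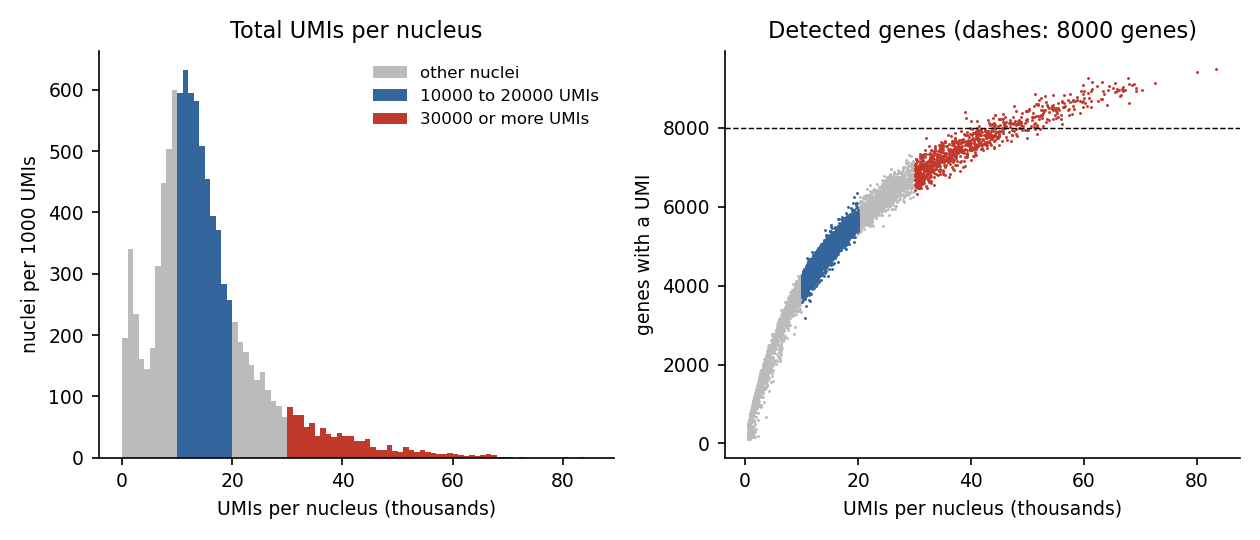
Left, number of nuclei per 1000 UMIs of total depth. Right, genes with at least 1 UMI against total UMIs, 1 point per nucleus. The 901 high-UMI nuclei (red) form the right tail of 1 continuous distribution, and only they pass 8000 detected genes (dashes).

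Most of the difference in detected genes followed depth. After each nucleus was thinned at random to 5000 UMIs, the median was 2633 genes (interval of the median 2626 to 2639) in the high-UMI nuclei and 2590 (2586 to 2593) in the comparison nuclei, against 7485 and 4739 without thinning. The mitochondrial share of UMIs was also close, with a median of 6.15% (6.06 to 6.26) and 6.26% (6.20 to 6.31). Its largest value was 10.8% in the high-UMI nuclei and 33.7% in the comparison nuclei. Ribosomal protein transcripts took a median of 8.67% and 8.95% of UMIs.

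The nuclei carried the OPC program that their label names. Summed counts per 1000000 UMIs (CPM) over the 10 OPC markers were 5621 in the high-UMI and 5195 in the comparison nuclei, a ratio of 1.08 (1.08 to 1.09). *Pdgfra*, the receptor used for isolation, was at 292 and 239 CPM, *Lhfpl3* at 1984 and 1869 CPM, and *Olig2*, a lineage transcription factor, at 309 and 286 CPM. Some markers of other cells were near 0: microglial markers summed to 5.89 and 8.25 CPM, endothelial markers to 8.52 and 8.84, and fibroblast and pericyte markers to 0.548 and 0.602 over 8, 6 and 7 genes. Others were not: neuronal markers summed to 338 and 342 CPM and neural progenitor markers to 1215.6 and 1151.5 CPM. The 8 astrocyte markers, some of which progenitors also express, summed to 549 and 530 CPM, while *Gfap* and *Aqp4* of that list were at 1.29 and 0.0548 CPM in the high-UMI nuclei. *Trp53* was at 27.2 and 24.5 CPM. These UMIs are counted over the whole gene, including what Cre leaves in place, so they do not check the deletion. Mouse *Pdgfb* was at 0.356 and 0.421 CPM.

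The transcriptomes of the groups were close gene by gene. Of 7470 genes with at least 20 CPM in either group, 96.3% lay within the fold used here as a call, which is a CPM at least 25% higher or at least 20% lower, and the median ratio of high-UMI to comparison CPM was 0.998. Higher by that fold were 89 genes (1.19% of those tested), and lower were 184 genes (2.46%). No gene was 2-fold higher and 5 were 2-fold lower, and 98% of all ratios were between 0.727 and 1.26. Because the groups have different cluster makeup, described below, each ratio was also taken with both groups weighted to the cluster makeup of all nuclei (equal-makeup ratio). Under this weighting, 30 of the 89 higher and 32 of the 184 lower genes stayed past the call. The clusters were made from the same counts, so genes that lead a cluster can be drawn toward 1 by the weighting itself. Clusters 1, 6 and 7 entered it with only 21, 9 and 5 high-UMI nuclei, and these ratios carry no interval. Against the nuclei of 15000 to 20000 UMIs alone, 29 genes were higher (0.39% of 7439 tested) and 62 lower (0.833%).

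Genes of mitosis led the higher genes by ratio. Of all 89 higher genes, 19 were in a cell cycle list, as were 5 of the 184 lower genes and 137 of the 7470 tested. Of the 12 genes with the highest ratio, among those found in at least 10% of the nuclei at 5000 UMIs, 6 were in a cell cycle list: *Cdc20*, *Gas2l3*, *Nek2*, *Ube2c*, *Ccnb1* and *Cenpf*. *Cdc20*, which activates the anaphase-promoting complex (ENSMUSG00000006398, mm39 chr4:118290098-118294610), came first, with 148 CPM against 89.7 CPM, a ratio of 1.66 (1.60 to 1.72). *Ube2c*, the ubiquitin-conjugating enzyme of that complex, was at 448 and 306 CPM, a ratio of 1.46. *Ccnb1*, cyclin B1, was at 180 and 123 CPM (ratio 1.46), and *Cenpf*, a kinetochore protein, at 427 and 294 CPM (ratio 1.45). *Gas2l3*, which links actin and microtubules during cytokinesis, was at 95.2 and 62.2 CPM (ratio 1.53), and *Nek2*, a centrosomal kinase, at 43.8 and 29.7 CPM (ratio 1.47). Outside the lists, *Kifc1*, a spindle kinesin, had a ratio of 1.44, *Troap*, a spindle protein, 1.48, and *Sapcd2*, a regulator of spindle orientation, 1.48. The remaining 3 were *Gabrg3*, a GABA-A receptor subunit (1.49), *Sytl2*, a vesicle transport protein (1.45), and *Gm42047* (1.46). With equal makeup, 9 of the 12 stayed past the call, and *Troap*, *Gm42047* and *Sytl2* had ratios of 1.24, 1.096 and 1.05.

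The cell cycle genes did not move as 1 block. All 14 tested genes of the mitotic kinases and cyclins had a ratio above 1 and 7 passed the call (background 1.19%), with a median log2 ratio of 0.35 against -0.0034 for all tested genes. *Plk1*, *Aurka* and *Cdk1*, the kinases that drive mitotic entry and spindle assembly, had ratios of 1.34, 1.37 and 1.31. Of 20 kinetochore, spindle and condensin genes, 4 passed the call (*Cenpf*, *Cenpa*, *Cenpe* and *Kif20a*). The condensin genes *Smc4*, *Smc2*, *Ncapg* and *Ncaph* had ratios of 1.10, 1.03, 1.00 and 0.989. Over the 54 G2/M genes that Seurat carries, the summed level was 10835 against 9214 CPM, a ratio of 1.18 (1.17 to 1.18), and 16 of the 53 tested passed the call upward and none downward. *Top2a*, which untangles replicated DNA, and *Mki67*, the proliferation antigen, were at ratios of 1.18 and 1.13.

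Replication genes lay on the other side of 1. The 43 S phase genes summed to 3832 CPM in the high-UMI and 4193 CPM in the comparison nuclei, a ratio of 0.914 (0.908 to 0.920), and 37 of the 42 tested had a ratio under 1. Of 23 tested genes for origin licensing and the replication fork, 21 were under 1 and none passed the call: *Pcna*, the sliding clamp, was at 0.841, *Cdc6*, a licensing factor, at 0.815, and *Mcm2*, a helicase subunit, at 1.03. All 7 genes of nucleotide supply were under 1, among them *Rrm2*, a ribonucleotide reductase subunit, at 0.816 and *Tyms*, thymidylate synthase, at 0.817. The cyclins of S phase entry, *Ccne1* and *Ccne2*, were lower at 16.6 against 25.5 CPM (ratio 0.653) and 25.4 against 35.5 CPM (ratio 0.715), both past the call (background 2.46%). *Ccnd1*, cyclin D1 and a target of mitogen signaling, was at 1384 and 1216 CPM, a ratio of 1.14.

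**Figure D2:**
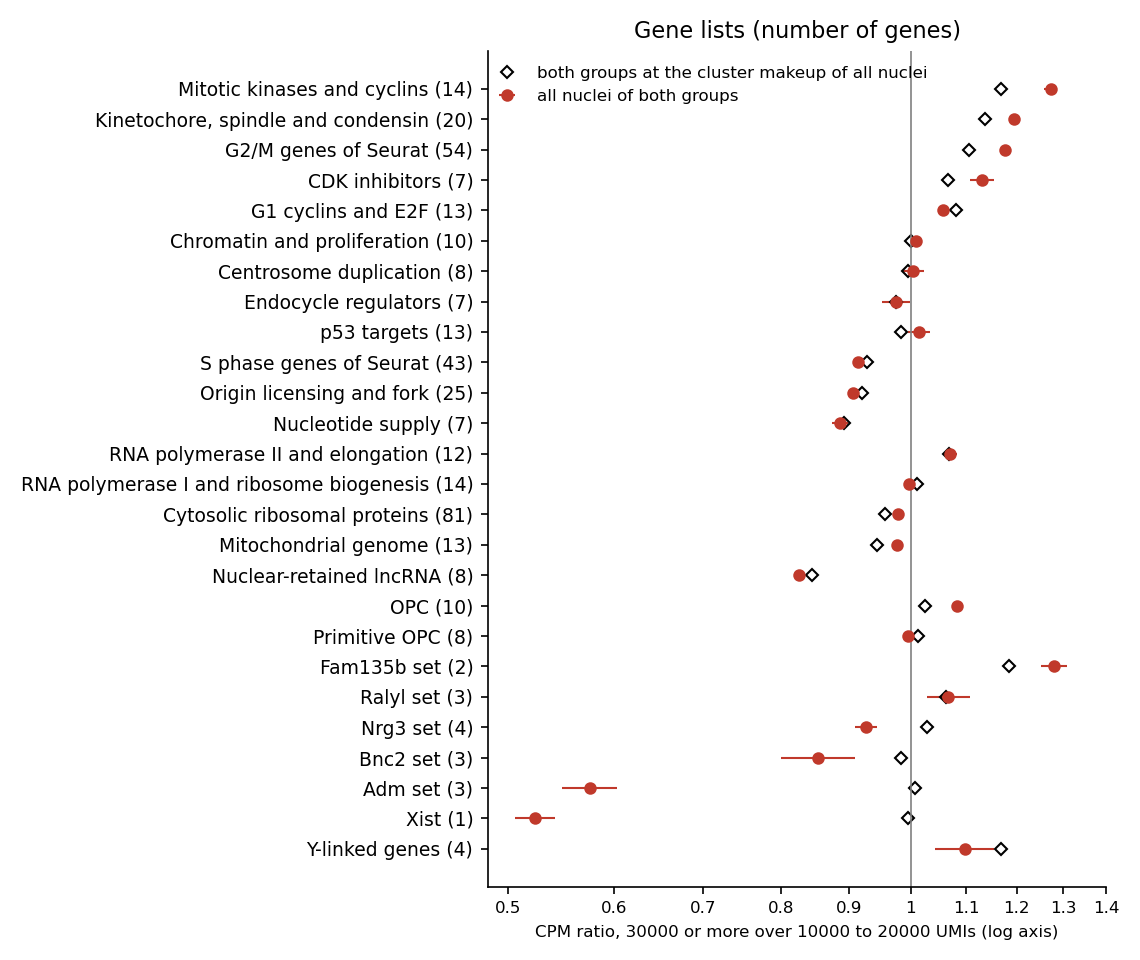
Ratio of summed CPM in the high-UMI nuclei over the comparison nuclei for the gene lists of the text, on a log axis, with 95% exact intervals (red, counting error only) and with both groups at the cluster makeup of all nuclei (open diamonds). Mitotic lists lie above 1 and replication lists below 1 either way. *Xist* and the *Adm* set move from 0.524 and 0.576 to 0.995 and 1.01. *Xist* and genes of that set lead a cluster made from the same counts, so the weighting itself draws them toward 1.

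Promoters of the higher G2/M genes were read because these genes lead the difference between the groups, having been chosen for their ratio. The element TTTGAA (the cell cycle homology region) and the element CCAAT are known from G2/M promoters. In windows of 250 bases before to 50 bases after the start of the GENCODE canonical transcript on GRCm39, TTTGAA on either strand was in 7 of the 16 higher G2/M genes, and all 7 also held CCAAT. The first element was in 21 of the 37 other tested G2/M genes and in 4 of 42 S phase genes (9.52%). It was in 13.1% of the 7341 protein-coding genes tested and in 17.1% of 21431 protein-coding promoters. CCAAT was in 12 of the 16, in 25 of the 37, in 22 of the 42 and in 40.0% of all promoters. The 4 windows printed below are among the 7 that hold both elements, and were not taken in order of ratio. *Gas2l3* and *Nek2*, with ratios of 1.53 and 1.47, had CCAAT but no TTTGAA and are not printed. Capitals mark both elements and their reverse complements, as matches and not as shown binding sites. The windows lie at chr4:118294561-118294860 on the minus strand for *Cdc20*, chr2:164611568-164611867 on the plus strand for *Ube2c*, chr1:189420263-189420562 on the minus strand for *Cenpf* and chr10:69188719-69189018 on the minus strand for *Cdk1*.
Cdc20: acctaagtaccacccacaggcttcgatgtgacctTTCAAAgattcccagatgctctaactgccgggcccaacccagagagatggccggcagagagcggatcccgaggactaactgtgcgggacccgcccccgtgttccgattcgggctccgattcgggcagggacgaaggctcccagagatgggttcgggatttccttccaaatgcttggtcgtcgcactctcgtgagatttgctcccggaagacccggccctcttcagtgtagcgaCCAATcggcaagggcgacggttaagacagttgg
Ube2c: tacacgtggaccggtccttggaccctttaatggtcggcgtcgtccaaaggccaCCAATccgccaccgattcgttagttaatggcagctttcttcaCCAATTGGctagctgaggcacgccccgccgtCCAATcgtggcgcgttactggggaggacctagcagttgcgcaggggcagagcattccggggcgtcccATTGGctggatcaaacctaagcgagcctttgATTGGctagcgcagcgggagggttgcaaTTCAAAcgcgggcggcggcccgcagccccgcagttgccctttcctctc
Cenpf: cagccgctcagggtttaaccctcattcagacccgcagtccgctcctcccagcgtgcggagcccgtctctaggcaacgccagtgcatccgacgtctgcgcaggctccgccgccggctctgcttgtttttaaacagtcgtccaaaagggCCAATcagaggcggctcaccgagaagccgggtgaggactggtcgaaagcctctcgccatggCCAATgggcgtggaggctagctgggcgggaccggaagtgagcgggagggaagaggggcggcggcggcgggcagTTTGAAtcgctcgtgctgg
Cdk1: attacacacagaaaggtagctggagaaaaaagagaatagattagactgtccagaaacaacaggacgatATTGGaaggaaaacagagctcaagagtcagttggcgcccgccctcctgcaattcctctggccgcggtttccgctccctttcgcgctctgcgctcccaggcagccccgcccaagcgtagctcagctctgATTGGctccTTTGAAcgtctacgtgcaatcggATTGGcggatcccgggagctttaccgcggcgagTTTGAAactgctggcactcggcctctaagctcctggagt

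By phase call at 5000 UMIs the high-UMI nuclei had more G2/M and fewer S nuclei than the comparison nuclei. G2/M was called in 50.9% (47.6 to 54.3) of the high-UMI and 36.1% (34.7 to 37.5) of the comparison nuclei, S in 20.98% (18.4 to 23.8) and 35.2% (33.9 to 36.6), and G1 in 28.1% (25.2 to 31.1) and 28.7% (27.4 to 29.98). Another random thinning gave G2/M shares of 56.9% and 37.0% and S shares of 20.6% and 35.3%, and counts without thinning gave 63.6% and 38.9% for G2/M. The G1 share of the high-UMI nuclei was less stable, at 22.4% against 27.7% under that second thinning and 19.2% against 24.9% without thinning, so no likeness of the G1 shares is read. S and G2/M together came to 71.9% and 71.3%, and to 77.6% and 72.3% under the second thinning. Free RNA can enter such calls, and its part was not tested. The depth of a nucleus differed between phases over the 8972 nuclei of at least 5000 UMIs, the only ones with a phase call at that depth. The median was 12362 UMIs in G1, 13327 in S and 16856 in G2/M. The share of nuclei that reached 30000 UMIs was 9.09% in G1, 6.63% in S and 13.7% in G2/M, and 253 of the 901 high-UMI nuclei were called G1.

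The G2/M share rose with depth up to 25000 UMIs and stayed near that level in deeper nuclei. It was 21.3% at 5000 to 10000 UMIs, 32.2% at 10000 to 15000, 42.6% at 15000 to 20000, 56.8% at 20000 to 25000 and 54.5% at 25000 to 30000. Above 30000 UMIs it was 49.1%, 50.8%, 50.4% and 56.2% in the 4 successive bins from 30000, 35000, 40000 and 50000 UMIs. The summed G2/M level went from 7166 CPM in the shallowest bin to 11439 CPM at 20000 to 25000 UMIs and 11018 CPM at 25000 to 30000, and was between 10673 and 11133 CPM above 30000.

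A different quantity went on rising. When all nuclei of at least 5000 UMIs were clustered at equal depth, 8 clusters were found, and the high-UMI nuclei lay mostly in clusters 2 and 5. Cluster 2 held 352 of them (39.1%, against 14.7% of the comparison nuclei), and cluster 5 held 290 (32.2%, against 1.73%). Cluster 2, with *Gm42047*, *Sytl2* and *Erbb3* among its leading genes, had 66.6% of its nuclei in G2/M and a median of 21080 UMIs. Cluster 5 had a median of 30007 UMIs, and its leading genes *Mlc1*, *Slc4a4* and *Xist* exceeded the other nuclei by only 1.76, 1.64 and 1.62 times, where the first gene of every other cluster did so by 2.82 to 63.2 times. Its share rose from 0.893% at 10000 to 15000 UMIs to 25.5% at 30000 to 35000 and 52.7% at 50000 or more. Cluster 1, led by *Grin2a*, *Xist* and *Apln*, went the other way, from 27.0% at 10000 to 15000 UMIs to 1.37% at 50000 or more, and held only 21 high-UMI nuclei.

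**Figure D3:**
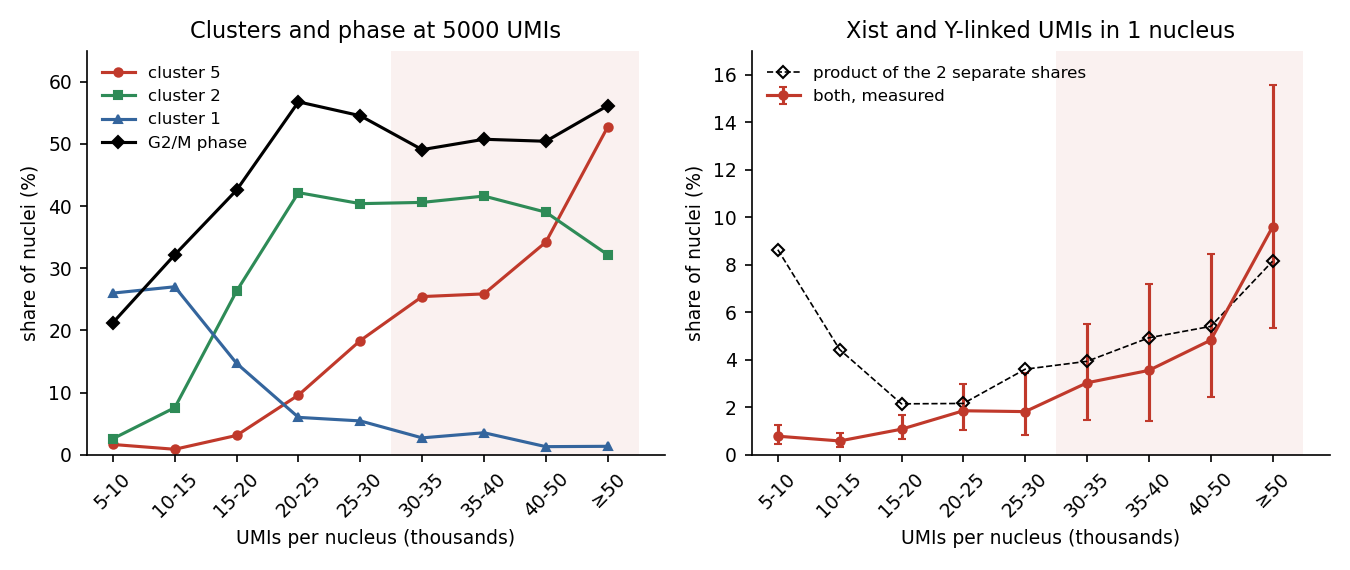
Left, share of nuclei by total UMIs in clusters 1, 2 and 5 and in G2/M phase, all called at 5000 UMIs per nucleus. Right, share of nuclei with both *Xist* and Y-linked UMIs (red, 95% exact binomial interval) and the product of the 2 separate shares (open diamonds). In the shaded bins of 30000 or more UMIs the G2/M share stays between 49.1% and 56.2% while cluster 5 reaches 52.7%, and the measured joint share is 9.59% beside a product of 8.14% in the deepest bin and lies under the product in the other shaded bins.

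Since the culture came from pups of either sex, transcripts of the silent X chromosome and of the Y chromosome mark different cells. *Xist* (ENSMUSG00000086503, mm39 chrX:102503972-102537573) coats the silent X chromosome of female cells, and *Ddx3y*, *Eif2s3y*, *Kdm5d* and *Uty* are Y-linked. Most nuclei had UMIs of neither kind at 5000 UMIs, 58.9% of the high-UMI and 62.6% of the comparison nuclei, and so were not marked. At 5000 UMIs, 42 of 901 high-UMI nuclei had UMIs of both kinds (4.66%, 3.38 to 6.25), against 36 of 4672 comparison nuclei (0.771%, 0.540 to 1.07). Without thinning the shares were 17.4% and 1.80%, but more UMIs per nucleus raise such a share by themselves, so no difference is read from these. The joint share was 0.784% at 5000 to 10000 UMIs and 0.584% at 10000 to 15000. It was 3.03% at 30000 to 35000, 4.82% at 40000 to 50000 and 9.59% at 50000 or more. Among nuclei with *Xist*, Y-linked UMIs were found in 18.6% (13.7 to 24.3) of the high-UMI and 3.31% (2.33 to 4.56) of the comparison nuclei.

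The joint share of the high-UMI nuclei lay close to the product of the separate shares, and that of the comparison nuclei lay below it. *Xist* was found in 25.1% and Y-linked UMIs in 20.6% of them, a product of 5.18% beside the measured 4.66%. In the comparison nuclei the shares of 23.2% and 14.96% have a product of 3.48%, beside 0.771% measured. Clusters rich in one kind give a low share for the other, from free RNA or doublets, which were not told apart: in cluster 4, where 67.0% of nuclei had Y-linked UMIs (median 10110 UMIs), 1.60% had *Xist*, and in cluster 1, where 94.2% had *Xist* (median 11609 UMIs), 2.44% had Y-linked UMIs. Among all nuclei of at least 5000 UMIs, the 119 with both kinds had a median of 21700 UMIs, against 12460 for *Xist* only and 11540 for Y-linked only. Of these 119, 35.3% (26.8 to 44.6) were high-UMI nuclei.

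*Xist* itself was present in a like share of both groups but at a lower level in the high-UMI nuclei. Its summed level was 118 CPM against 225 CPM, a ratio of 0.524 (0.507 to 0.542), so no order is read from the shares of 25.1% and 23.2%. Among nuclei with *Xist*, the high-UMI ones had a median of 2 *Xist* UMIs at 5000 UMIs (quartiles 1 and 3) and the comparison ones with *Xist* and no Y-linked UMI a median of 5 (3 and 7).

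The same nuclei had more of some OPC transcripts than the *Xist*-positive comparison nuclei. In the comparison nuclei, those with *Xist* only (1050 nuclei) had *Pdgfra*, *Lhfpl3* and *Sox10* at 26.1, 202 and 7.56 CPM. In the 184 high-UMI nuclei with *Xist* only, these genes were at 221 (211 to 232), 1435 (1409 to 1462) and 84.1 (77.8 to 90.8) CPM. *Olig1*, another OPC gene, differed less, with 638 CPM in the high-UMI and 521 CPM in the comparison nuclei with *Xist* only. The genes that lead cluster 1 were lower there: *Grin2a* was at 49.7 against 137 CPM, *Apln* at 94.2 against 244, *Egfr* at 97.0 against 220 and *Xist* at 413 against 1017 CPM. For *Pdgfra*, *Sox10*, *Grin2a*, *Apln* and *Egfr*, the level in these high-UMI nuclei lay between that of *Xist*-only comparison nuclei and that of comparison nuclei with at least 3 *Lhfpl3* UMIs and no *Xist*, where the genes were at 304, 104, 0.559, 3.29 and 16.4 CPM. *Xist* and *Lhfpl3* defined these classes and are left out of that comparison.

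Counted by nucleus, 199 of 226 *Xist*-positive high-UMI nuclei (88.1%, 83.1 to 92.0) had at least 3 UMIs of *Lhfpl3*, an OPC gene at mm39 chr5:22951057-23480611, at 5000 UMIs. The count was 102 of 1086 (9.39%, 7.72 to 11.3) in the comparison nuclei. The median was 7 *Lhfpl3* UMIs in the former and 0 in the latter, beside 10 and 11 in the nuclei of each group without *Xist*. *Pdgfra* was found in 57.1% of the *Xist*-only high-UMI nuclei and 8.10% of the *Xist*-only comparison nuclei. Among all nuclei of at least 5000 UMIs, the 477 with *Xist* and at least 3 *Lhfpl3* UMIs had a median of 26995 UMIs. The median was 11677 in the 1578 with *Xist* and fewer *Lhfpl3* UMIs. It was 14766 in the 6465 with at least 3 *Lhfpl3* UMIs and no *Xist*. High-UMI nuclei made up 41.7% of the first class, 1.71% of the second and 10.2% of the third. *Lhfpl3* and *Pdgfra* were chosen for this count after their values in cluster 1 had been seen.

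**Figure D4:**
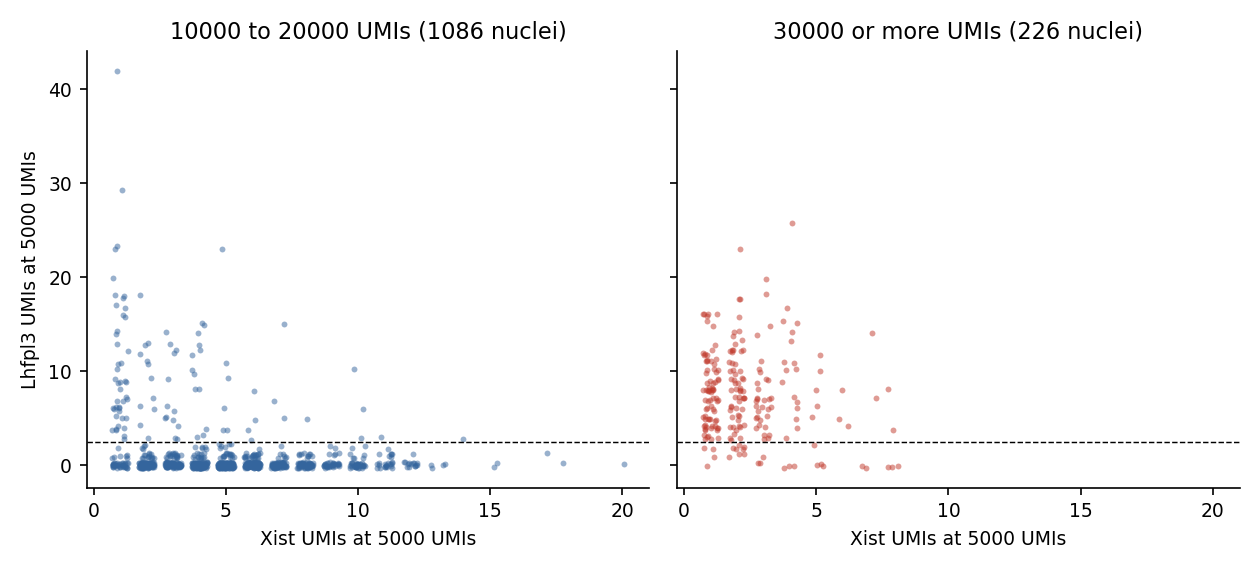
*Lhfpl3* UMIs against *Xist* UMIs at 5000 UMIs per nucleus, for the nuclei with *Xist* in each group, with a small random shift of the points. Below the dashes (under 3 *Lhfpl3* UMIs) lie most of the 1086 comparison nuclei but only 27 of the 226 high-UMI nuclei.

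Cluster placement followed these values. Of the *Xist*-positive nuclei, 175 of 226 high-UMI nuclei (77.4%) lay in cluster 5 and 20 (8.85%) in cluster 1, whereas 991 of 1086 comparison nuclei (91.3%) lay in cluster 1 and 50 (4.60%) in cluster 5. In cluster 5, 60.1% of all nuclei had *Xist*, 24.2% had Y-linked UMIs and 11.6% had both, the last of which was at most 2.09% in any other cluster. The 81 comparison nuclei in cluster 5 were like its 290 high-UMI nuclei in this, with 12.3% and 12.4% having both kinds. Outside clusters 1 and 5, *Xist* UMIs were also higher in the high-UMI nuclei of some clusters: 26.2 against 4.91 CPM in cluster 2, 21.6 against 2.64 in cluster 3 and 50.3 against 6.96 in cluster 4, but 10.7 against 11.2 in cluster 0.

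The chromosome 14 share was also read, in classes set by a marker set and so not independent of the markers. Nuclei with that set, the *Ralyl* set, also differed otherwise, with *Xist* at 52.7 CPM in the high-UMI and 19.5 CPM in the comparison nuclei. Nuclei with the *Ralyl* set (at least 3 UMIs of *Ralyl*, *Tafa1* and *Tafa2* at 5000 UMIs) had less RNA from chromosome 14: among comparison nuclei the median share of non-mitochondrial UMIs was 2.07% (2.01 to 2.13, 363 nuclei) with the set and 3.64% (3.62 to 3.66, 4309 nuclei) without it. In the 64 high-UMI nuclei with the set the median was 2.80% (2.63 to 3.06), and in the 837 without it 3.69% (3.65 to 3.74). The quartiles with the set were 2.44 and 3.23% in the high-UMI and 1.82 and 2.56% in the comparison nuclei. The middle of the high-UMI nuclei with the set thus lay between the other values.

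**Figure D5:**
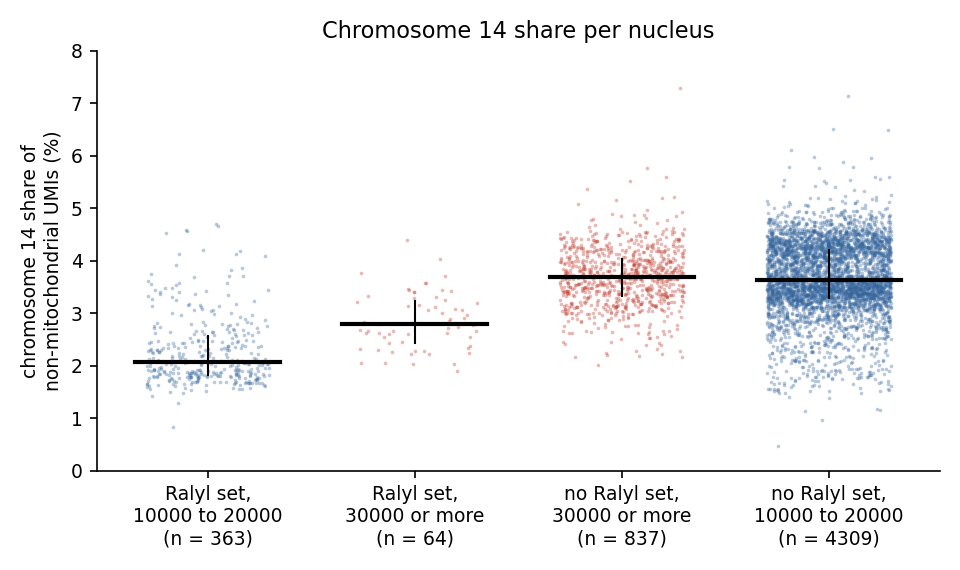
Share of non-mitochondrial UMIs from genes of chromosome 14, 1 point per nucleus, by presence of the *Ralyl* set and by total UMIs. Thick lines are medians and thin lines join the quartiles. The 64 high-UMI nuclei with the set center on 2.80%, between 2.07% for comparison nuclei with it and 3.69% for high-UMI nuclei without it.

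Transcript sets that mark different clusters met more often in high-UMI nuclei for some pairs and not for others. The *Nrg3* and *Fam135b* sets, each present at 3 or more UMIs of 5000, were found together in 36 of 901 high-UMI nuclei (3.996%, 2.81 to 5.49) and 34 of 4672 comparison nuclei (0.728%, 0.504 to 1.02). That is 0.471 and 0.139 of the product of their separate shares. The *Nrg3* and *Ralyl* sets, which share nuclei in the comparison group as well, were together in 3.996% and 5.91%. At least 2 of the 5 sets were present in 10.4% (8.51 to 12.6) of the high-UMI and 8.20% (7.43 to 9.02) of the comparison nuclei at 5000 UMIs. Without thinning the shares were 73.5% and 23.3%, where the unequal depth of the groups enters. With thinning to 3000 UMIs the order turned, to 3.22% and 3.47%, so no order is read from this share. The *Adm* set was present in 2.89% and 8.71%. By summed level the *Adm*, *Bnc2*, *Nrg3*, *Ralyl* and *Fam135b* sets were at ratios of 0.576, 0.853, 0.926, 1.07 and 1.28, and the Y-linked genes at 1.10.

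Doublet scores from Scrublet, which compares each nucleus with simulated mixtures of the library's own nuclei, were higher in the high-UMI nuclei. The median was 0.204 (0.196 to 0.213) against 0.0497 (0.0497 to 0.0510) on deposited counts and 0.244 against 0.0650 on thinned counts. On deposited counts 611 of the 901 (67.8%, 64.7 to 70.9) were over the automatic threshold of 0.145, against 7.23% of the comparison nuclei and 16.7% of all. Depth was not equal in that run and the groups were chosen by depth, so the part of depth in these calls was not told apart. On thinned counts the threshold was placed at 0.727 and called only 3 of 8972 nuclei, so no calls are taken from that run. Cluster 5 had the highest median thinned score, 0.343, against 0.0422 in cluster 1. Within single clusters the members also scored higher, with 0.250 against 0.0748 in cluster 0, 0.206 against 0.0748 in cluster 2 and 0.257 against 0.0599 in cluster 4, but 0.303 against 0.366 in cluster 5. Scrublet is built to find mixtures of unlike nuclei. A droplet with a pair of like nuclei and 1 nucleus with more RNA cannot be told apart from these counts, and how much of each result comes from doublets was not tested.

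The mitotic genes were also read apart from cluster 5 and apart from the nuclei over the Scrublet threshold. This choice was made after the data had been seen, and the threshold came from deposited counts of unequal depth. Clusters and scores come from the same counts, so leaving these nuclei out does not show that the rest are free of doublets. The G2/M ratio was 1.19 for the 611 high-UMI and 4591 comparison nuclei outside cluster 5, and 1.20 for the 290 and 4334 nuclei under the threshold. *Cdc20* was at ratios of 1.78 and 1.93, *Ube2c* at 1.52 and 1.61, and *Cenpf* at 1.52 and 1.58. The S phase ratio was 0.899 and 0.857. The joint *Xist* and Y-linked share of the high-UMI nuclei was 0.982% and 0.690%, beside 0.566% and 0.531% of the comparison nuclei. Cluster 5 was richest in such nuclei and Scrublet is built to find mixtures, so a lower joint share follows from the removal itself. Detected genes at 5000 UMIs were 2613 and 2589 at the median, beside 2589 and 2587. Genes called higher then numbered 224 (3% of those tested) and 314 (4.19%), and lower genes 410 (5.48%) and 572 (7.63%). *Xist* was at ratios of 0.249 and 0.274. Outside cluster 5, cluster 1 held 21 of the 611 high-UMI and 1046 of the 4591 comparison nuclei, so cluster makeup still differed.

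Within clusters the mitotic difference was uneven. In cluster 0 (94 high-UMI and 985 comparison nuclei) the G2/M genes summed to 12118 and 9061 CPM, a ratio of 1.34 (1.32 to 1.35), and in cluster 3 (89 and 1113 nuclei), where nearly all nuclei were called G1 or S, to 6033 and 4672 CPM, a ratio of 1.29 (1.27 to 1.31). In cluster 2, already rich in G2/M, the sum was 11865 and 12068 CPM, a ratio of 0.983 (0.976 to 0.990), and in cluster 4 (41 and 475 nuclei) the ratio was 0.950. Inside cluster 2, genes differed in direction: *Cenpf* was at 468 against 291 CPM (1.61), *Cdc20* at 193 against 132 (1.45) and *Ccnb1* at 214 against 153 (1.40), but *Top2a* at 931 against 1109 (0.839). *Cenpf* was above 1 in each of the 6 clusters with at least 20 nuclei of both groups, from 1.04 in cluster 4, where the interval of 0.970 to 1.12 includes 1, to 2.20 in cluster 3. S phase genes were below 1 in 5 of these clusters (0.886 to 0.951) and at 1.02 in cluster 5.

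Of 27 tested genes in the lists on polyploidy, 1 was called higher (1.19% of all genes) and 2 lower (2.46% of all genes). DNA content was not measured, and genes are scaled to total UMIs, so an even gain of all RNA leaves no trace in CPM. The 7 endocycle regulators summed to 286 and 293 CPM, a ratio of 0.974 (0.952 to 0.998). *E2f7* and *E2f8*, atypical E2F repressors of polyploid cells, were at 0.878 and 0.905, and of this list only *Fzr1*, the anaphase-promoting complex activator that drives endocycles and G1, passed the call, with 32.5 against 24.6 CPM (1.32, 1.23 to 1.43). Its equal-makeup ratio was 1.16. The 8 centrosome duplication genes summed to a ratio of 1.00 (0.986 to 1.02), with *Plk4*, the trigger of centriole duplication, at 1.01. The 13 p53 targets were at 1.01 (0.995 to 1.03), with none of the 5 tested past the call, in cells made *Trp53* null by design. *Cdkn1a* was at 19.7 and 18.3 CPM. The CDK inhibitors *Cdkn2c* and *Cdkn2d* were at 1.21 each and *Cdkn1b* at 1.13, and the 7 inhibitors together at 1.13 (1.11 to 1.15), or 1.07 with equal makeup. Of the Hippo genes, *Wwtr1* and *Tead1* were lower, at 0.648 and 0.786, while the list was at 0.817, and at 1.06 with equal makeup.

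RNA was spread over the chromosomes much as in the comparison nuclei, when each group was pooled. An even gain over all chromosomes leaves these shares unchanged, and pooling can hide opposite shifts between clusters. For chromosome 14, at 1.01 pooled, the median share per nucleus was 2.59 against 1.99% in cluster 4 and 3.89 against 4.24% in cluster 2. Over chromosomes with at least 20 tested genes, the share of UMIs in the high-UMI nuclei divided by that in the comparison nuclei ran from 0.924 (0.921 to 0.926) for chromosome 12 to 1.05 (1.05 to 1.05) for chromosome 15. For chromosome 12 the median log2 ratio over its 264 tested genes was -0.11. Of these genes 19 were called lower and 0 higher, where 2.46% and 1.19% of all tested genes were. For chromosome 15 the median was 0.07 over 320 genes, with 6 called lower and 9 higher. Chromosome 19, which carries *Malat1*, was at 0.938. No other chromosome lay outside 0.976 to 1.03. By summed level gene span made little difference: genes under 5 kb had a ratio of 0.989 and genes over 100 kb a ratio of 1.01. The calls did differ with span. Of 1611 tested genes over 100 kb, 96 were lower and 12 higher. Of 2785 tested genes of 5 to 30 kb, 34 were lower and 47 higher.

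The machinery of RNA synthesis differed little per UMI. The 12 genes of RNA polymerase II and elongation summed to 1132 and 1058 CPM, a ratio of 1.07 (1.06 to 1.08), with 10 of 12 above 1 and none past the call. *Polr2a*, the catalytic subunit, was at 228 and 200 CPM (1.14). RNA polymerase I and ribosome biogenesis genes were at 0.997 (0.991 to 1.00), with *Ubtf* at 1.20 and *Ncl* at 0.974. Cytosolic ribosomal protein genes were at 0.978 and mitochondrial genes at 0.976.

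Some RNA species took a smaller part of the high-UMI transcriptome. *Malat1*, a nuclear long noncoding RNA, was at 7641 and 9333 CPM, a ratio of 0.819 (0.815 to 0.822). It was 10029 CPM at 20000 to 25000 UMIs and 6278 CPM at 50000 or more. In single clusters its ratio ran from 0.634 in cluster 4 to 1.12 in cluster 3, so that its direction depended on the cluster. *Neat1* and *Kcnq1ot1*, also nuclear, were at 0.986 and 1.01. *mt-Nd6*, a complex I subunit and the coding gene that lies on the opposite strand of the mitochondrial genome from the rest, was at 85.7 and 150 CPM, a ratio of 0.572 (0.550 to 0.596). The other 12 mitochondrial genes were between 0.839 and 1.02. *mt-Nd6* was under 1 in each of the 6 clusters with at least 20 nuclei of both groups, from 0.459 in cluster 4 to 0.803 in cluster 2, with every interval below 1.

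The 12 genes with the lowest ratio, by the same rule, are given by whether the equal-makeup ratio stayed past the call. *Xist*, *Apln*, a secreted peptide, *Lamb1*, a laminin chain, and *Lrig1*, a negative regulator of receptor tyrosine kinases, had ratios of 0.511 to 0.559, and with equal makeup 0.995, 0.967, 1.26 and 0.976. *Xist* and *Apln* are among the leading genes of cluster 1, so the weighting itself draws them toward 1. The other 8 stayed at or below 0.8 with equal makeup: *8030451A03Rik* (0.334, then 0.576), *Gm26936* (0.442, 0.474), *Phykpl*, a lysine-catabolic enzyme (0.488, 0.562), *Gm38505* (0.505, 0.496), *5330438D12Rik* (0.542, 0.552), *Bmpr1b*, a BMP receptor (0.556, 0.732), *Wdr17* (0.564, 0.599) and *mt-Nd6* (0.572, 0.670). Over all 184 lower genes, 47 had a ratio above 1 with equal makeup, against 1 of the 89 higher genes that fell under 1.

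All 9 tested OPC markers were above 1, from *Nkx2-2* at 1.02 to *Pdgfra* at 1.22, and none passed the call. The list ratio was 1.02 with equal makeup. *Sox10* was at 100 and 82.4 CPM (1.22) and *Cspg4*, the NG2 proteoglycan, at 73.0 and 60.6 CPM (1.20). *Tubb3*, a neuronal tubulin, was higher at 30.4 and 24.0 CPM (1.27), while *Rbfox3*, a marker of mature neurons, was at 2.63 and 4.59 CPM. *Egfr* was lower at 43.3 and 65.1 CPM (0.665), and 1.05 with equal makeup. Immediate early genes summed to a ratio of 1.02 and heat shock genes to 0.961, hypoxia and glycolysis genes to 0.939 and feedback genes of ERK signaling to 0.991. Committed oligodendrocyte markers summed to a ratio of 1.02, primitive OPC markers to 0.994, astrocyte markers to 1.04, neuronal markers to 0.991 and neural progenitor markers to 1.06. Chromatin and proliferation genes were at 1.01 and the G1 cyclins and E2F genes at 1.06.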

How the data were processed

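Nuclei of the BB-p53n OPC culture were profiled with 10x snRNA-seq. The deposited values are raw UMI counts per gene and barcode, which the authors made with Cell Ranger 8.0.1 on mm39 per the submitters' processing notes. Deposited nuclei had 500 to 83454 UMIs. Members (30000 or more UMIs) and comparison nuclei (10000 to 20000) were chosen by total counts, with no filter on genes or mitochondrial share. The members, the 40 gene lists and the markers were chosen with earlier results of these data known.

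CPM was the summed UMIs of a gene per 1000000 summed UMIs of a group. Genes with at least 20 CPM in either group were compared, and called when at least 25% higher or, as the same fold, at least 20% lower. Shares per nucleus used counts thinned at random to 5000 UMIs, which left out 1075 of 10047 nuclei, none of them in either group. Thinned counts were clustered and phased in Seurat 5.3.0 (R 4.3.3): scale factor 1000, 3000 variable genes, principal components 1 to 20, 200 neighbors and resolution 1. Scrublet ran in scanpy 1.11.5 with an expected rate of 0.08, on deposited and on thinned counts, and no nucleus was removed. Intervals were computed with scipy 1.17.1 and numpy 2.4.6 in Python 3.11.15. Chromosomes, gene spans and promoters came from GENCODE on GRCm39, where 33185 of 33696 genes matched by identifier.

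Every gene of a list could be named. The 12 highest and 12 lowest ratios were also named, among genes with at least 20 CPM and a UMI in at least 10% of nuclei of the higher group at 5000 UMIs, and the leading genes of a cluster only as its label. Alternatives covered the UMI limits, the filters on genes and mitochondrial share, the scaling, the minimum CPM, the thinning, the cluster makeup and the resolution. The scripts were tested on simulated data. Results for a few items, among them the summed myelin list, are not reported here.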

Additional observations from a re-analysis of the deposited data

How the results depend on the processing

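Of the values recomputed under alternatives, 46 moved by less than their counting interval (or a count by less than 1.5 times), and 49 moved by more. The G2/M and S ratios kept their direction under each alternative, while the mitochondrial share, the S or G2/M share and the share with at least 2 sets crossed 1 under some. Values are high-UMI over comparison unless named. The G2/M ratio of 1.18 was 1.19 for members of 40000 or more UMIs, 1.10 against nuclei of 15000 to 20000 UMIs, 1.15 at up to 5% mitochondrial UMIs, 1.19 as a mean over nuclei and 1.10 with equal cluster makeup. The S phase ratio of 0.914 was 0.900 from 40000 UMIs, 0.923 at up to 8000 genes and 0.928 with equal makeup. Gene counts are followed by their share of the genes tested in that setting. The 89 higher genes (1.19%) became 139 (1.85%) from 40000 UMIs and 29 (0.39%) against 15000 to 20000 UMIs. They became 323 (4.28%) at up to 5% mitochondrial UMIs and 55 (0.731%) with equal makeup. With a minimum of 5 CPM they were 179 (1.65%), and with none 3544 (14.1%). The 184 lower genes (2.46%) became 62 (0.833%) against 15000 to 20000 UMIs and 428 (5.68%) at up to 5% mitochondrial UMIs. They became 47 (0.624%) with equal makeup, 572 (5.26%) with a minimum of 5 CPM and 7177 (28.5%) with none. Detected genes (1.02) were at 1.58 without thinning, and the mitochondrial share (0.982) at 1.02 up to 5%. The S or G2/M share (1.01) was 0.924 against 15000 to 20000 UMIs, 1.07 at 3000 UMIs, 1.08 without thinning and 1.07 with another seed. The share with at least 2 sets (1.27) was 0.891 at up to 5% mitochondrial UMIs, 0.928 at 3000 UMIs, 3.15 without thinning and 1.74 with sets present from 2 UMIs, so that its order, like that of the S or G2/M share, depended on the setting. The doublet score ratio (4.11) was 3.81 against 15000 to 20000 UMIs and 3.75 on thinned counts. Members numbered 1396 from 25000 and 374 from 40000 UMIs. The share of members in the clusters holding most of them (71.3% against 16.4% of the comparison nuclei) was 83.0% against 41.2% at resolution 0.4. Chosen after seeing the data, leaving out cluster 5 gave 1.19 for G2/M, 0.899 for S, 224 higher (3%) and 410 lower genes (5.48%), 1.01 for detected genes, 3.25 for the score and 1.73 for the joint share (6.05 with all nuclei). Leaving out nuclei over the Scrublet threshold, also chosen then, gave 1.20, 0.857, 314 (4.19%), 572 (7.63%), 1.00, 1.75 and 1.30, and 0.692 for the share with at least 2 sets. Both of these choices rest on the same counts, so the lower joint share follows from the removal itself. The cause of the other moves was not tested. The chromosome ratio had no alternative. No paired analysis was possible because there was 1 library.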
